A study of Cavia porcellus with 34 samples.

Results

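Vascular smooth muscle and pericyte genes were followed in tissue of the paraventricular nucleus (PVN), which controls the hypothalamo-pituitary-adrenal axis from the hypothalamus. The 10 genes were ACTA2, TPM2, TAGLN, MYH11, MYL9, CNN1 and DES, which encode parts of the contractile apparatus or cytoskeleton, and PDGFRB, RGS5 and NOTCH3, which mark pericytes and vascular mural cells. They were chosen by gene symbol with the sGC against Veh results of these same animals known, so that their fold changes and adjusted p-values are descriptions and not independent evidence. Of the 10 genes, 9 had a row in at least 1 of the deposited tables, which list 12592 genes in all. The tables held 4 of them for F1, 3 for F2 and 9 for F3, and TAGLN and NOTCH3 were in all tables. CNN1 (calponin) was not analysed here.

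Pregnant F0 guinea pigs of the Dunkin-Hartley strain had received multiple courses of the synthetic glucocorticoid betamethasone (sGC) or saline vehicle (Veh). The F1 animals had been exposed as fetuses, and F2 and F3 were bred through the paternal line by mating males with untreated females. Punches holding the PVN, which could include adjacent hypothalamus, were taken from juvenile females on postnatal day 40, and mRNA was sequenced. Each of the 4 groups of F1 and F2 held 5 animals, and each of the 2 groups of F3 held 6. Animals of a group came from separate litters. In F3, the sGC animals SGM21-batch2 and SGM22-batch2 were sequenced in a second batch that held no Veh animal in the deposited table.

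Smooth muscle cells wrap arteries and arterioles, and shorten when myosin pulls on filaments of smooth muscle actin. Pericytes sit on capillaries within the basement membrane they share with the endothelium, and take part in the stability of the blood-brain barrier. PDGF-B released by endothelial cells acts on the receptor encoded by PDGFRB and recruits pericytes, while NOTCH3 is a receptor of mural cells that responds to ligands on neighbouring cells. In bulk tissue, fewer cells of a type and less RNA per cell cannot be told apart. The names contractile genes and pericyte genes are labels of the lists and do not separate smooth muscle cells from pericytes.

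Values are normalized counts after removal of unwanted variation by the authors, rounded to whole numbers, and summed to between 15.6 and 21.9 M (mega) per animal in F1, 15.6 and 19.4 M in F2, and 18.7 and 19.0 M in F3. The marker lists of the tissue were present. In F3, 17 of 18 endothelial markers, 9 of 10 PVN neuroendocrine markers and 8 of 8 astrocyte markers had a row, and no gene of these lists was at 0 in any animal. In F1, sGC animal SGM4 had the highest summed fibroblast and leptomeningeal markers (4 of 17 genes in the table), 4218 normalized counts against 839 to 1643 in the other animals. In F2, Veh animal SGM22 had the highest sum of the same list (4 of 17 genes), 3165 against 524 to 1618. Neither animal was flagged for this list by the outlier check described near the end. The fold changes of the smooth muscle and pericyte genes without these animals are given below. Those of the related lists and markers are given with all animals.

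In F3, 5 of the 6 contractile genes measured were higher in sGC than in Veh in group mean, by 1.18 to 1.83-fold, and the 3 pericyte genes differed by under 1.04-fold. None of the 9 genes passed the threshold of 0.05 on the adjusted p (limma, Benjamini-Hochberg over all 11866 genes tested), where 6 genes or 0.0506% of those tested passed. At an unadjusted p under 0.05, 5 of the 9 genes passed, against 1556 genes or 13.1% of all genes tested. Since the genes were chosen with this contrast known, nothing is read from that difference. The median log2 fold change was 0.45 over the 6 contractile genes and 0.04 over the 3 pericyte genes, against -0.00 over all genes.

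ACTA2, the smooth muscle alpha-actin of the thin filament, ranged from 90 normalized counts in Veh through a median of 131.5 to a highest value of 141. In sGC it ranged from 156 through 181 to 210. The groups did not overlap, as was so in the same direction for 69 genes or 0.581% of those tested. The means were 121.3 ± 22.2 (SD, n = 6) and 181.8 ± 21.5 (SD, n = 6), and the log2 fold change was 0.59 ± 0.12 (SE) on the log2(value + 1) scale (adjusted p = 0.0768). Actin genes are nearly identical in their coding sequence, so how reads were split between ACTA2 and its paralogs is uncertain. For ACTC1, the cardiac actin, the F3 log2 fold change was -0.01 (adjusted p = 0.983).

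TPM2, the beta-tropomyosin that lies along the actin filament, had 63 normalized counts in the lowest Veh animal, a median of 67 and a highest value of 98. The sGC animals had 93, 107 and 143 in the same order. Thus 5 of 6 sGC animals were above the highest Veh animal, with means of 75.2 ± 15.3 and 110.5 ± 17.4 (SD, n = 6 each) and a log2 fold change of 0.56 ± 0.13 (SE; adjusted p = 0.107).

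MYH11, the smooth muscle myosin heavy chain and the motor of contraction, showed the largest fold change and the widest spread of these genes. It had 94, 170 and 274 normalized counts as lowest, median and highest value in Veh, and 203, 301.5 and 396 in sGC. Again 5 of 6 sGC animals were above every Veh animal, and the log2 fold change was 0.87 ± 0.22 (SE; adjusted p = 0.138). In Veh the SD of its log2 values was 0.55, against a median of 0.08 over all genes.

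MYL9, a regulatory light chain of that myosin, had 306, 362 and 415 normalized counts as lowest, median and highest value in Veh and 363, 420.5 and 514 in sGC. The groups overlapped, with 4 of 6 sGC animals above the highest Veh animal and a log2 fold change of 0.24 ± 0.08 (SE; adjusted p = 0.236). TAGLN, the actin-binding protein transgelin and an early marker of the smooth muscle lineage, had 1076, 1332.5 and 1468 in Veh. The sGC animals had 1227, 1675 and 1938, and the animal at 1227, SGM22-batch2, was the only one of the 6 below the Veh maximum. The log2 fold change of TAGLN was 0.33 ± 0.10 (SE; adjusted p = 0.203).

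**Figure D1:**
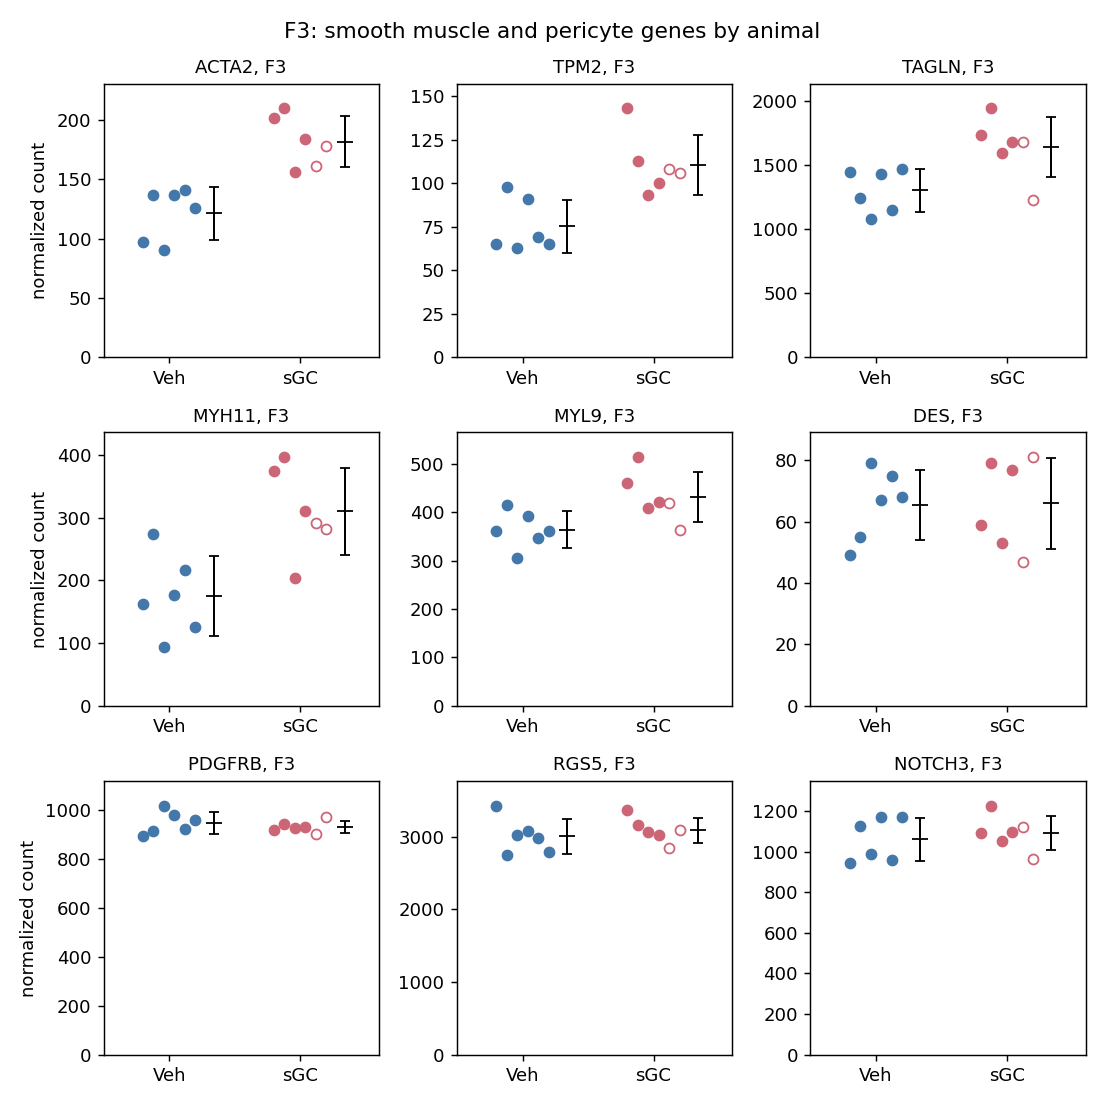
Normalized count (vertical axis, from 0) of the 9 measured genes in each F3 animal, Veh and sGC side by side (n = 6 each), with open points for the 2 animals of the second sequencing batch and the mean with its SD to the right of each group. The groups are apart for ACTA2 and lie at the same level for DES, PDGFRB, RGS5 and NOTCH3. For TPM2, MYH11 and TAGLN, 5 of 6 sGC animals lie above every Veh animal and the other lies within the Veh range.

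DES encodes desmin, the intermediate filament of muscle cells that pericytes also hold. It had a mean of 65.5 ± 11.5 normalized counts in Veh and 66.0 ± 14.8 in sGC (SD, n = 6 each). The 95% interval of its log2 fold change ran from -0.33 to 0.33, so that a difference of the size seen for MYL9 lay inside the interval and was not detectable, while that of ACTA2 lay outside it.

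RGS5, a regulator of G protein signalling that is abundant in brain pericytes, had 2754, 3002.5 and 3423 normalized counts as lowest, median and highest value in Veh and 2843, 3077.5 and 3367 in sGC. PDGFRB had 894, 942 and 1017 in Veh and 902, 928 and 974 in sGC. NOTCH3 had 942, 1057 and 1173 in Veh and 963, 1094.5 and 1224 in sGC. The groups overlapped for each of the 3 genes. The 95% intervals of the log2 fold changes were -0.07 to 0.15 for RGS5, -0.10 to 0.05 for PDGFRB and -0.10 to 0.19 for NOTCH3 (adjusted p = 0.780, 0.824 and 0.831).

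Within the batch of F3 sequenced first, which held 6 Veh and 4 sGC animals, limma gave log2 fold changes of 0.64 for ACTA2, 0.58 for TPM2, 0.91 for MYH11, 0.42 for TAGLN and 0.31 for MYL9. These were as large as or larger than with all animals, and none passed the adjusted threshold. The second batch also held 2 Veh libraries sequenced again, for which no values were at hand. Its values here are those of sGC animals alone and give no fold change of their own.

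In F1, the 4 genes measured were higher in sGC in group mean and none passed the threshold (limma), where 78 of 11874 genes, or 0.657%, did. RGS5 and NOTCH3 had an unadjusted p under 0.05, as had 1611 genes or 13.6% of all genes tested. The median log2 fold change of the 4 genes was 0.58, against 0.07 over all genes. Without sGC animal SGM4 it was 0.30.

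RGS5 had 2074, 2411, 2012, 1829 and 1988 normalized counts in the Veh animals. In the sGC animals it had 10487 in SGM4, 4516 in SGM8, 1991 in SGM12, 3875 in SGM16 and 2577 in SGM20. Thus 4 of 5 sGC animals were above the highest Veh animal, and the sGC group spread over 5.27-fold from its lowest to its highest value. The log2 fold change was 0.94 ± 0.27 (SE; adjusted p = 0.103). Without SGM4 it was 0.58, and without SGM12, the sGC animal within the Veh range, it was 1.18 and passed the threshold (adjusted p = 0.00754), as did 151 genes or 1.27% of those tested. Over all alternatives its adjusted p ran from 0.00754 to 0.278.

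NOTCH3 had 851, 859, 717, 541 and 687 normalized counts in Veh and 1280, 1205, 982, 882 and 704 in sGC. The sGC value of 704, in SGM20, lay inside the Veh range and the other 4 lay above it. The log2 fold change was 0.45 ± 0.16 (SE; adjusted p = 0.185), and it was 0.40 with the values scaled to the sample total, where it passed the threshold (adjusted p = 0.0441) as did 1943 genes or 16.4% of those tested. With the values as deposited and without SGM4, the log2 fold change of NOTCH3 was 0.36.

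TPM2 had 71, 88, 89, 100 and 105 normalized counts in Veh and 539, 116, 88, 77 and 159 in sGC, where 539 was that of SGM4. Of the other 4 sGC animals, 2 were inside the Veh range. The log2 fold change of 0.70 ± 0.34 (SE; adjusted p = 0.369) was 0.23 without SGM4. TAGLN had 1589, 1852, 1303, 1417 and 736 in Veh and 2084, 706, 1877, 1926 and 1346 in sGC. For TAGLN, 3 sGC animals were above the highest Veh animal and 1 was below the lowest. The log2 fold change of TAGLN was 0.17 ± 0.24 (SE; adjusted p = 0.831). It was -0.04 without Veh animal SGM19, 0.44 without sGC animal SGM8 and 0.05 without SGM4.

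Markers of other cells also differed between the animals of F1. Summed endothelial markers (17 of 18 in the table) were 23251 normalized counts in SGM4 and 22554 in SGM8, against 13898 to 16587 in the other sGC animals and 11649 to 17214 in Veh. Of the 17 genes, 16 were higher in sGC in group mean. CDH5, the cadherin of endothelial junctions, had 324.2 ± 61.5 normalized counts in Veh and 617.2 ± 325.7 in sGC (SD, n = 5 each; adjusted p = 0.0830). PVN neuroendocrine markers (9 of 10 in the table) summed to 42349, 51368 and 66142 in SGM4, SGM8 and SGM20, below the Veh range of 111089 to 246075, and oligodendrocyte markers (7 of 8) ran up to 99716 in sGC against 35931 to 45283 in Veh. The part of these cell contents in the F1 values was not tested.

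In F2, the 3 genes measured were lower in sGC in group mean and none passed the threshold (limma), nor did any of the 11965 genes tested (0%). PDGFRB and NOTCH3 had an unadjusted p under 0.05, as had 1395 genes or 11.7% of all genes tested. PDGFRB had 1478, 907, 1151, 812 and 1131 normalized counts in Veh and 856, 895, 948, 799 and 792 in sGC. NOTCH3 had 1306, 982, 1088, 1012 and 1219 in Veh and 923, 1017, 1046, 918 and 903 in sGC. For both genes every sGC animal was below the Veh median and the groups overlapped. The log2 fold changes were -0.32 ± 0.14 for PDGFRB and -0.22 ± 0.09 for NOTCH3 (SE; adjusted p = 0.394 for each). NOTCH3 had -0.14 with median-of-ratios size factors and -0.13 with scaling to the sample total.

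The direction of TAGLN in F2 turned with single animals. It had 4675 normalized counts in Veh animal SGM22 and 734, 1067, 404 and 1603 in the other Veh animals, and 662, 1582, 1562, 997 and 1041 in sGC. The Veh group thus covered the whole sGC range, and its 1.32 SD on the log2 scale stood against a median of 0.15 over all genes. The log2 fold change was -0.10 ± 0.50 (SE; adjusted p = 0.943) and turned to 0.40 without SGM22, 0.01 without Veh animal SGM29 and 0.09 without sGC animal SGM21. Without SGM22, PDGFRB had -0.21, a value moved by more than 1.5 times, and NOTCH3 had -0.16. SGM22 also had the highest summed endothelial markers (15 of 18 in the table), 19910 normalized counts against 12221 to 17857 in the other animals, and all 15 of these genes were lower in sGC in group mean. The part of that cell content in the F2 values was not tested.

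**Figure D2:**
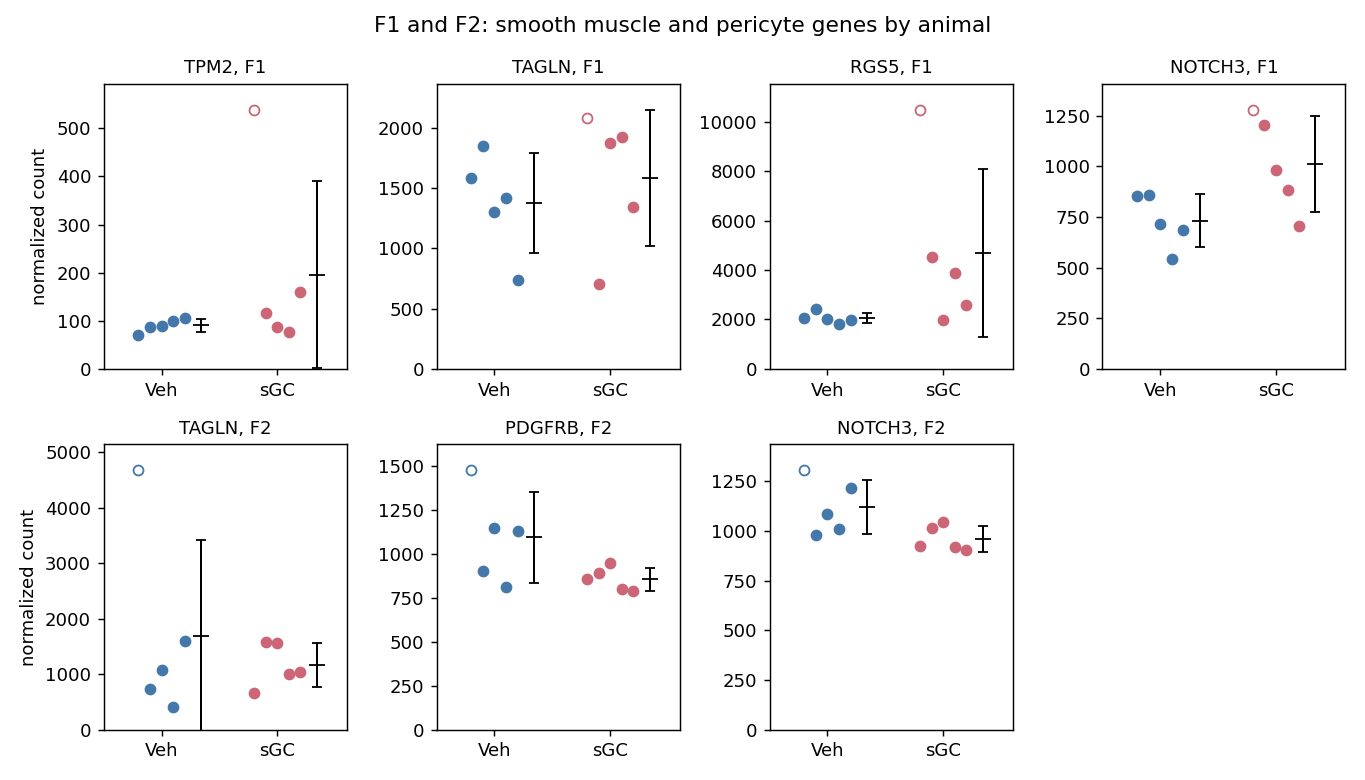
Normalized count (vertical axis, from 0) of the genes measured in F1 (top) and F2 (bottom) in each animal (n = 5 per group), with the mean and SD to the right of each group and the lower bar ended at 0 where the SD exceeds the mean. Open points are SGM4 in F1 sGC and SGM22 in F2 Veh, which hold the highest value of every gene shown in their generation.

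**Figure D3:**
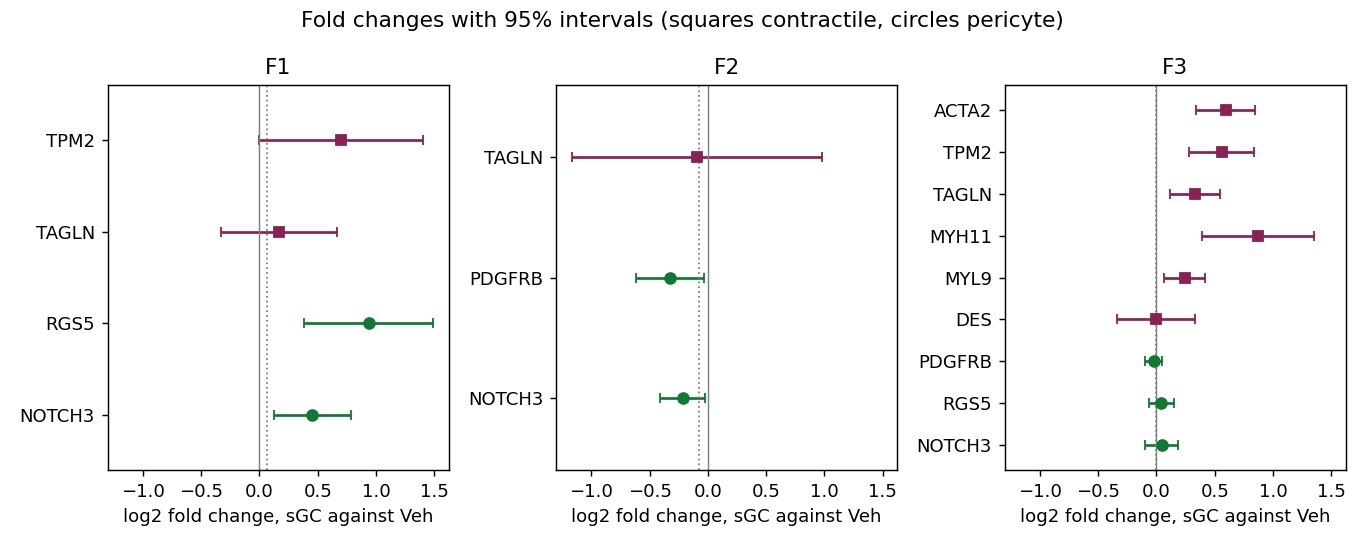
Log2 fold change of sGC against Veh on the log2(value + 1) scale (horizontal axis) with its 95% interval from limma, for each gene in each generation. Squares are contractile genes and circles pericyte genes, the solid line is no difference and the dotted line the median over all genes, -0.08 in F2 and 0.07 in F1.

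The effects were set against each other between generations for each gene measured in both, in 9 tests (exact two-sided permutation of the labels within each generation). None passed after adjustment over the 9 tests, and 2 had an unadjusted p under 0.05. NOTCH3 came closest, with a log2 fold change in F1 that was 0.67 above that in F2 (exact permutation p = 0.00576, adjusted p = 0.0519). After scaling by median-of-ratios size factors the difference was 0.53 and passed (exact permutation, adjusted p = 0.0125). The NOTCH3 difference between F2 and F3 was -0.26 (exact permutation p = 0.0472, adjusted p = 0.177), and that of RGS5 between F1 and F3 was 0.90 (exact permutation p = 0.0590, adjusted p = 0.177). TPM2 and TAGLN gave adjusted exact p-values of 0.812 to 0.890. Each generation's table was normalized on its own, so that levels are not compared between generations.

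The genes around these were taken as lists of the rest of the contractile apparatus, its transcription factors, other pericyte genes and the signals between endothelium and mural cells. No gene of these lists passed the threshold in any generation (limma). In F3, of the 21 other contractile genes tested, 12 were higher and 9 lower in sGC in group mean, with a median log2 fold change of 0.01 and a range from -0.22 to 0.26. MYLK, the kinase that phosphorylates the myosin light chain, had 702.0 ± 126.2 normalized counts in Veh and 720.0 ± 125.3 in sGC (SD, n = 6 each; adjusted p = 0.938). LMOD1, the smooth muscle leiomodin that starts actin filaments, had 146.0 ± 15.4 and 148.5 ± 9.4 (adjusted p = 0.916). CALD1, the actin-binding caldesmon, had 917.0 ± 88.2 and 968.0 ± 56.3 (adjusted p = 0.603). MYLK, LMOD1 and CALD1 were singled out after their values were seen. The 2 largest fold changes of the list were those of MRVI1, an IP3 receptor-associated protein of smooth muscle, with a log2 fold change of 0.26 and a 95% interval from 0.03 to 0.50 (adjusted p = 0.322), and SYNPO2, an actin-binding synaptopodin, with -0.22 and an interval from -0.65 to 0.21 (adjusted p = 0.687).

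In F1, 18 of 21 other contractile genes were higher in sGC in group mean, with a median log2 fold change of 0.25 against 0.07 over all genes. ITGA8, the integrin alpha-8 chain, had 88.0 ± 22.8 normalized counts in Veh and 168.6 ± 56.6 in sGC (SD, n = 5 each; adjusted p = 0.0569), and LMOD1 had 116.8 ± 16.5 and 215.2 ± 132.0 (adjusted p = 0.196). In F2, 17 of the 21 were lower, with a median of -0.17 against -0.08 over all genes. PPP1R14A, an inhibitor of myosin phosphatase, had 1311.2 ± 187.9 in Veh and 785.8 ± 159.4 in sGC (adjusted p = 0.0622), a log2 fold change of -0.75. Between F2 animals it did not follow TAGLN, with r = -0.23 and rank 6864 of 11962 genes. The oligodendrocyte markers (8 of 8 in the table) were lower in the same animals, with log2 fold changes from -0.95 to -0.67 and sums of 67322 to 108716 normalized counts in sGC against 127806 to 229813 in Veh, and their part in the F2 values was not tested. KCNMB1, the beta subunit of the calcium-activated potassium channel of smooth muscle, had 1353 ± 1064 and 2037 ± 502 (adjusted p = 0.475), with the widest interval of these genes.

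Among the transcription factors, MYOCD, the coactivator myocardin that drives contractile genes with SRF, had 52.2 ± 8.6 normalized counts in F3 Veh and 60.5 ± 8.5 in F3 sGC (SD, n = 6 each; adjusted p = 0.518). The 8 factors tested in F3 had a median log2 fold change of 0.04, with 5 higher and 3 lower. TEAD1, a partner of the Hippo coactivators, had a log2 fold change of -0.10 (adjusted p = 0.502). In F1, 6 of 7 factors were higher, with a median of 0.33, where HEYL, a target of Notch signalling, had 0.38 (adjusted p = 0.397) and MYOCD 0.37 (adjusted p = 0.672). In F2, 5 of 7 were lower, with a median of -0.14, HEYL at -0.29 (adjusted p = 0.470) and TEAD1 at 0.28 (adjusted p = 0.472).

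Of the other pericyte genes in F3, 9 of 13 were higher, with a median log2 fold change of 0.02 and a range from -0.11 to 0.21, where ENPEP, the aminopeptidase A of pericytes, had 0.06 (adjusted p = 0.845) and ART3 -0.11 (adjusted p = 0.738). In F1, 10 of 14 were higher, with a median of 0.20, and ENPEP and ANPEP, the aminopeptidase N, had 0.78 and 0.58 (adjusted p = 0.210 and 0.385). In F2, 12 of 13 were lower, with a median of -0.26, ART3 at 1.14 (adjusted p = 0.418) and ANPEP at -0.38 (adjusted p = 0.508).

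The ligands and receptors of the PDGF, NOTCH and TGF-beta pathways and of vasoactive peptides had a median log2 fold change of 0.15 over 25 genes in F1, -0.12 over 25 in F2 and -0.02 over 27 in F3. In F1, AGTR1, the angiotensin II receptor, had 165.6 ± 65.2 normalized counts in Veh and 98.4 ± 20.6 in sGC (SD, n = 5 each; adjusted p = 0.142), and EDN1, the vasoconstrictor endothelin 1, had 62.4 ± 15.1 and 103.6 ± 54.5 (adjusted p = 0.286). In F2, EDN1 had 101.2 ± 34.4 and 59.8 ± 16.9 (adjusted p = 0.299) and TEK, the angiopoietin receptor of endothelium, 270.8 ± 114.7 and 190.0 ± 26.8 (adjusted p = 0.485). In F3, EDNRB, the endothelin receptor B, had 4507 ± 224 in Veh and 5102 ± 330 in sGC (SD, n = 6 each; adjusted p = 0.125), and TGFB3 64.3 ± 10.3 and 53.8 ± 8.6 (adjusted p = 0.421).

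**Figure D4:**
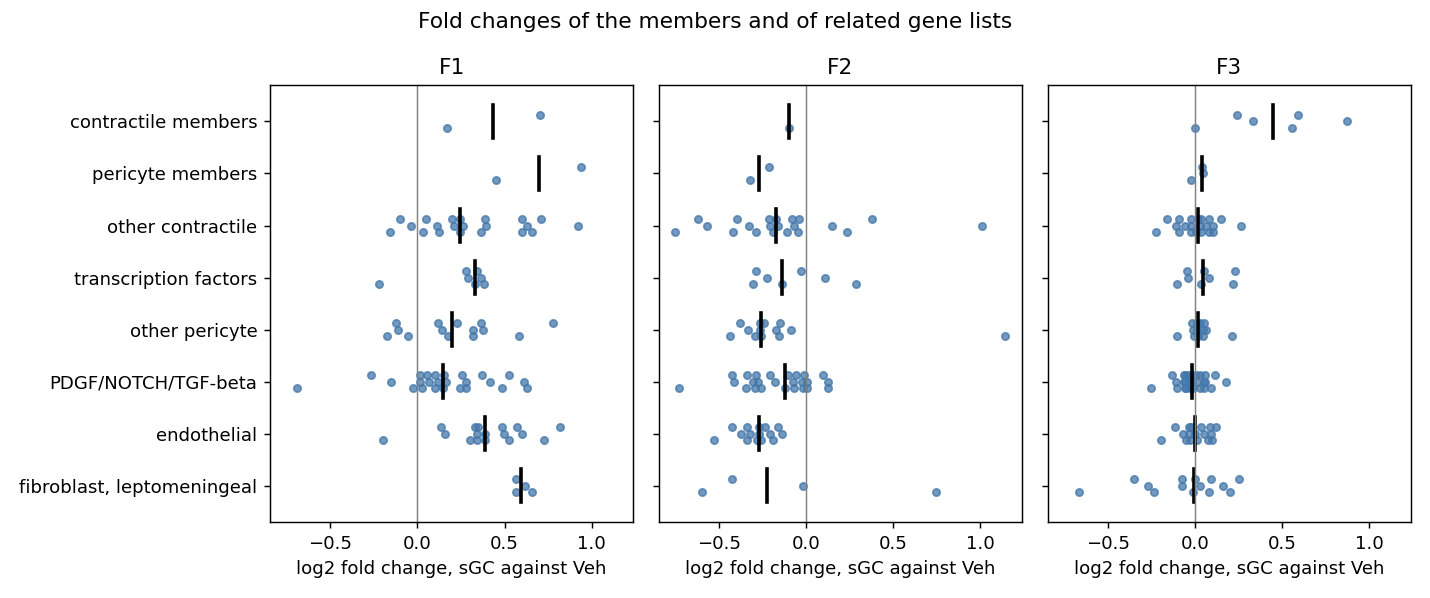
Log2 fold change of sGC against Veh (horizontal axis) of each gene tested in the lists named on the left, by generation, with a point per gene and a bar at the list's median. In F3 the contractile genes chosen have a median of 0.45 while the medians of the other lists lie between -0.02 and 0.04.

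In F3, summed endothelial markers (17 of 18) ran from 17996 to 19954 normalized counts in Veh and from 18184 to 20016 in sGC, with 8 of 17 genes higher and a median log2 fold change of -0.00. Summed fibroblast and leptomeningeal markers (14 of 17) ran from 3174 to 4395 in Veh and from 3087 to 4390 in sGC. Striated muscle markers (7 of 19) ran from 1061 to 1138 and from 1092 to 1240. The ranges of the groups overlapped in each list, and the part of these cell contents in the contractile values was not tested.

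The genes were then compared with each other between animals, as deviations from the group mean of log2 values relative to the animal's median gene, in 45 pairs (6 in F1, 3 in F2 and 36 in F3). None passed the threshold by Pearson's r after adjustment over the 45 pairs (two-sided permutation within groups, 100000 resamples), and 13 had an unadjusted p under 0.05, of which 7 were among the 15 contractile pairs of F3. The share of pairs under 0.05 over all genes was not computed, so nothing is read from these counts. The residual normalization had removed 2 within-group directions in F3 and 1 each in F1 and F2, so that the deviations of the animals are not independent of each other.

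In F3 (n = 12), ACTA2 and MYH11 had r = 0.78 and rho = 0.85 (permutation p = 0.00889 and 0.00281, adjusted p = 0.0704 and 0.0632). Without the 2 animals farthest from the median of ACTA2 r was 0.78, and in the first batch it was 0.80. ACTA2, TPM2, MYH11 and MYL9 correlated with each other at r = 0.65 to 0.78. With the 2 farthest animals left out in the same way, their pairs other than ACTA2 and MYH11 had r from 0.50 to 0.59. TAGLN had r = 0.75 with MYL9 and 0.18 to 0.27 with ACTA2, TPM2 and MYH11. Without its 2 farthest animals, the r of TAGLN with MYL9 was 0.43.

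DES did not follow the other contractile genes and had r from -0.35 to 0.30 with them. Its highest r was with PDGFRB, 0.77, with rho = 0.82 (permutation p = 0.00237 and 0.00085, adjusted p = 0.0704 and 0.0382), so that the pair passed by rank and not by Pearson's r. Without the 2 animals farthest from the median of DES r was 0.66, and in the first batch it was 0.73. The pericyte genes had r from -0.47 to 0.07 with each other in F3. NOTCH3 had r = 0.73 with MYL9 and 0.66 with TAGLN (permutation, adjusted p = 0.0704 and 0.113).

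**Figure D5:**
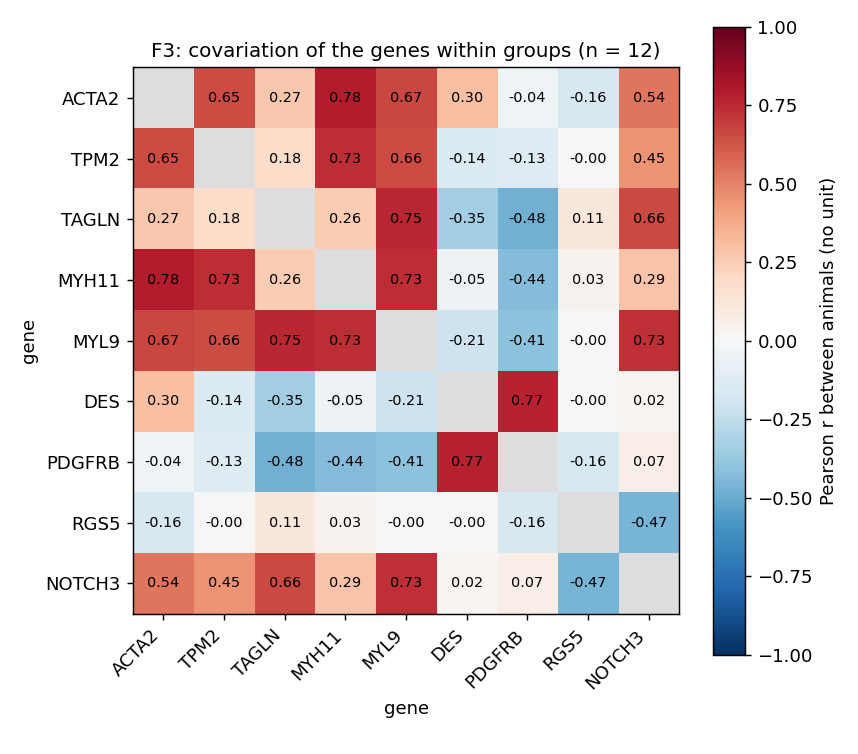
Pearson's r between animals for each pair of the 9 genes in F3 (n = 12, both axes are genes, colour and printed number are r), on log2 values centred within groups. ACTA2, TPM2, MYH11 and MYL9 form a block of positive values, and DES and PDGFRB pair with each other.

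In F2 (n = 10), the 3 pairs had r = 0.92 for TAGLN and PDGFRB, 0.79 for TAGLN and NOTCH3 and 0.71 for PDGFRB and NOTCH3 (permutation, adjusted p = 0.0704, 0.0704 and 0.148), and without the 2 farthest animals 0.53, 0.72 and 0.55. One of these was SGM22 in each pair. With the values as deposited, not set relative to the median gene, all 3 pairs passed. In F1 (n = 10), TPM2 and RGS5 had r = 0.77, which was 0.36 without SGM4 and SGM16, and RGS5 and NOTCH3 had r = 0.60 (permutation, adjusted p = 0.335 and 0.445).

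Set against the mean of the endothelial markers in 16 further correlations, a comparison chosen after seeing the data, RGS5 had r = 0.91 in F1, and TAGLN and PDGFRB had 0.94 and 0.90 in F2 (permutation, adjusted p = 0.0512 for each). Without the 2 farthest animals these were 0.64, 0.84 and 0.75. In F3, NOTCH3 had r = 0.74 (permutation, adjusted p = 0.0512), while the 6 contractile genes had 0.35 to 0.59 and RGS5 -0.14. No correlation of the 16 passed the threshold by r or rho, and 6 had an unadjusted p of Pearson's r under 0.05. The share over all genes was not computed here either.

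As a description, the genes whose values went most closely with the mean of the 6 contractile genes in F3 (n = 12 animals, members left out) included PSMD1, TNS2, CHCHD5, CD248, AHNAK, VPS13D, MAF1, NFATC2IP and PADI2, with r from 0.93 to 0.89. In F1 (n = 10, TPM2 and TAGLN) they were DSC2, SLC2A12, SPG20, SELP, TM4SF1, ATAD2, ZFP36L1, MFAP2, PLEKHG1 and THBS1, with r from 0.98 to 0.94. In F2 (n = 10, TAGLN alone) they were ARHGAP31, AKT1S1, TNFRSF8, SOX18, RASSF3, NXN, PTPN13, PRX, STAT6 and FCGRT, with r from 0.99 to 0.97. No gene was in more than 1 of these lists of 10. FLNA, the actin cross-linker filamin A, ranked 20th of 11870 genes in F1, 70th of 11962 in F2 and 28th of 11857 in F3, with r = 0.92, 0.94 and 0.84.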

How the data were processed

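RNA of PVN punches was sequenced as single-end mRNA libraries. The authors aligned the reads with TopHat2 to the guinea pig assembly cavPor3, counted them on genes with GenomicAlignments, removed outliers by Cook's distance, corrected the F3 batches with ComBat, removed unwanted variation by RUVSeq residuals and tested with edgeR. The deposited values are such normalized counts rounded to whole numbers, not raw reads, and were treated as a score with no fixed range. Deposited columns of the authors' own comparison (dispersion, log2 fold change, mean log CPM, likelihood ratio, p-value and its false discovery rate) were not used. The depth in reads is not known from these values, and the number of animals limits the precision.

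The genes and lists were chosen with earlier results of these data known. Each generation's table was fitted alone with limma 3.58.1 in R 4.3.3 (eBayes with trend) on unscaled log2(value + 1). Genes with a mean under 10 were left out, p-values were adjusted after Benjamini and Hochberg, and the threshold was 0.05. A fold change on this scale understates that of low genes. The procedure was tested on simulated data. From the values, the residuals lacked 1 within-group direction in F1, 1 in F2 and 2 in F3, which narrows the spread within groups. Exact and 100000-resample permutations used NumPy 2.4.6 and SciPy 1.17.1.

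All 10 genes are named. From each related list, genes under the threshold (at most 5) or else the 2 largest fold changes among genes with a mean of at least 50 were to be named. Of the genes so picked from the marker lists and the RGS family, only some are named. MYLK, LMOD1, CALD1 and ACTC1 in F3 and FLNA were named after their values were seen. In each table the 10 genes most like the contractile mean are named, except 1 in F3 that is not reported here. The alternatives were other scalings, pseudocount 5, a minimum mean of 50, no filter, the removed directions as covariates, leaving out each animal and, in F3, the batch. A replicate block by column number was added after seeing the data. The F3 Veh libraries sequenced again were not analysed here. No sequences are shown, and no coordinates, since no annotation of that assembly was used here.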

Additional observations from a re-analysis of the deposited data

Results flagged for a closer look

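None of the genes had an animal far from the others in its group on the log2 scale (32 groups of 5 or 6 animals examined with Dixon's ratio), and no difference between generations passed its test. Among the summed lists, 4 of 84 groups had such an animal, and chance gives about 1 in 20. The sum of the other contractile genes was 37339 normalized counts in F1 sGC animal SGM4, the same animal with the highest RGS5, TPM2, TAGLN and NOTCH3 values. The sum of the other contractile genes was lowest in F3 Veh animal SGM17, at 24532, and SGM17 also had the lowest ACTA2, TPM2, TAGLN, MYH11 and MYL9 values of the F3 animals. The sum of the red blood cell markers was 94 in F2 sGC animal SGM25 (1 of 9 genes in the table), and that of the microglia markers was 3438 in F3 sGC animal SGM6.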

How the results depend on the processing

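The number of genes called in F1 depended on the scaling: 78 as deposited, 2058 with median-of-ratios size factors, 1943 with scaling to the sample total and 2084 with quantile normalization, and leaving out each animal gave 15 (without Veh SGM15) to 474 (without Veh SGM7). In F2 it was 0 as deposited, 42 with quantile normalization, 17 at a mean of at least 50 and 0 to 114 (without Veh SGM28) leaving out each animal. In F3 it was 6, against 1 with the removed directions as covariates, 3 with the batch as a covariate, 2 in the first batch and 1 to 15 (without sGC SGM18) leaving out each animal. The cause was not tested. Of the smooth muscle and pericyte genes, 0 were called in each generation, except 1 in F1 with scaling to the sample total (NOTCH3) and 0 to 1 leaving out each F1 animal (RGS5 without SGM12). The F3 contractile genes other than DES kept their direction in all 22 alternatives, with adjusted p from 0.0682 to 0.294 for ACTA2 and 0.0666 to 0.424 for TPM2. The signs that turned were those of small values: TAGLN in F1 ran from -0.042 to 0.44 leaving out each animal, TAGLN in F2 from -0.49 to 0.40, and DES in F3 from -0.079 to 0.089, with 0.00048 by size factors, 0.022 by quantile normalization and 0.031 with the batch as a covariate or in the first batch. With values as deposited, 3 pairs in F2 and 1 pair in F3 passed the threshold, and with size factors 1 difference between generations did. Leaving out SGM4 moved the F1 median log2 fold change of the 4 genes from 0.58 to 0.30. The deposited columns carry a running number shared between Veh and sGC, which no label or method ties to a shared litter or day. Deviations of animals with the same number correlated at r from -0.24 to 0.31 in F1, -0.41 to 0.22 in F2 and -0.54 to 0.19 in F3 across genes, and in no generation did every animal correlate best with its own number. Animals of the same number were not taken as pairs, but with so few animals and with directions removed this check cannot exclude a pairing. With this number as a replicate block, chosen after seeing the data, 146 genes were called in F1, 6 in F2 and 0 in F3 (1127 at an unadjusted p under 0.05), and 0 of the smooth muscle and pericyte genes in each. For MYH11 in F3 the SE of the log2 fold change was then 0.11 against 0.22 without the block, and the adjusted p was 0.0600 (limma).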

Other observations

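Other members of the RGS family, to which RGS5 belongs, had in F3 a median log2 fold change of -0.05, with 11 of 15 lower in sGC in group mean and none past the threshold (limma). RGS4, a regulator of G protein signalling in neurons, had 1430 ± 128 normalized counts in Veh and 1224 ± 166 in sGC (SD, n = 6 each; adjusted p = 0.252). In F1, RGS6 had 259.0 ± 45.7 and 567.4 ± 406.7 and RGS2 934 ± 174 and 726 ± 182 (SD, n = 5 each; adjusted p = 0.245 and 0.278).

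Among the oligodendrocyte markers in F2, none of which passed the threshold (limma), MOBP, a myelin protein, had 15364 ± 5329 normalized counts in Veh and 7747 ± 1175 in sGC (SD, n = 5 each; adjusted p = 0.0622). All 9 PVN neuroendocrine markers tested were higher in F2 sGC in group mean, with OXT (oxytocin) at 33905 ± 8688 and 53190 ± 13252 (adjusted p = 0.244). In F1, OXT had 70791 ± 20378 in Veh and 33704 ± 29531 in sGC (adjusted p = 0.0884).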
